A study of Mus musculus with 2 samples.

Results

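The cells described here are 56 barcodes, out of 17043 kept in the 2 single-cell libraries of mouse spinal cord, that carried transcripts of monocyte marker genes. Monocytes are blood leukocytes made in the bone marrow. Classical monocytes carry the chemokine receptor Ccr2 and the surface antigen Ly6c2 and leave the blood for inflamed tissue, while non-classical monocytes patrol the inside of vessels under the transcription factor Nr4a1. In the central nervous system the resident microglia are a separate lineage, so that monocytes found in a dissociated cord come from its blood, its meninges or tissue they have entered.

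The libraries came from whole spinal cords of FVB mice at postnatal day 4, dissociated with trypsin and then collagenase II and read with 10x Genomics 3′ chemistry of version 3. The SMA mice had the genotype mSmn-/-, hSMN22tg/0 and the controls, labelled Con, had mSmn+/-, hSMN22tg/0, so that both carried the human SMN2 transgene and the controls had 1 intact mouse Smn allele. Per the study's methods 3 littermates were pooled in each library. There was thus 1 library per group, no test between groups was possible, and every interval below is a 95% interval that covers counting error only, exact except for ratios of shares of cells, which were set on the log scale.

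The cells were selected on their measured UMI counts, and a cell was chosen where at least 3 of 7 genes had a unique molecular identifier (UMI), namely Plac8, Ccr2, Ly6c2, Chil3, Lyz2, Ms4a4c and Ifitm6, where the microglial genes P2ry12, Tmem119 and Siglech had none, and where at most 1 of Mrc1, Cd163, Lyve1, Pdgfra and Cldn5 had any. The levels of those genes are a description. Cells had to have 200 to 4000 genes and under 10% mitochondrial UMIs.

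The 2 libraries listed 8163 of the same barcodes, out of 26921 in the SMA and 25419 in the Con library. SMA barcodes listed in Con were left out. Con cells were kept as 2 groups, Con shared for barcodes also listed in SMA and Con unshared for the others. This gave 16 SMA cells of 6787 kept, 28 Con unshared cells of 3689 and 12 Con shared cells of 6567. In the Con library sharing went with depth: among kept Con cells that were not chosen, 0.728% of those under 1000 UMIs were shared, against 78.3% at 4000 to 5000 and 99.6% at 7500 or more. Among the chosen Con cells none of the 22 with fewer than 3000 UMIs was shared, and all 11 with 5000 or more were. All 12 Con shared cells had a copy of their barcode kept in the SMA library, with 16.9 to 19.2% of the Con cell's UMIs.

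The 3 groups were not alike in depth or mitochondrial content. The SMA cells had a median of 4256.5 UMIs (range 2370 to 9547) and 5.92% mitochondrial UMIs. The Con unshared cells had a median of 1637 UMIs (641 to 4283) and 2.14%, and the Con shared cells 7121.5 (3838 to 10965) and 5.22%. The Con unshared cells were thus the shallowest, while the Con shared cells were the deepest and overlapped the SMA range. Genotype, depth and barcode class cannot be told apart in these libraries, so the 2 groups of Con cells were kept apart throughout.

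**Figure D1:**
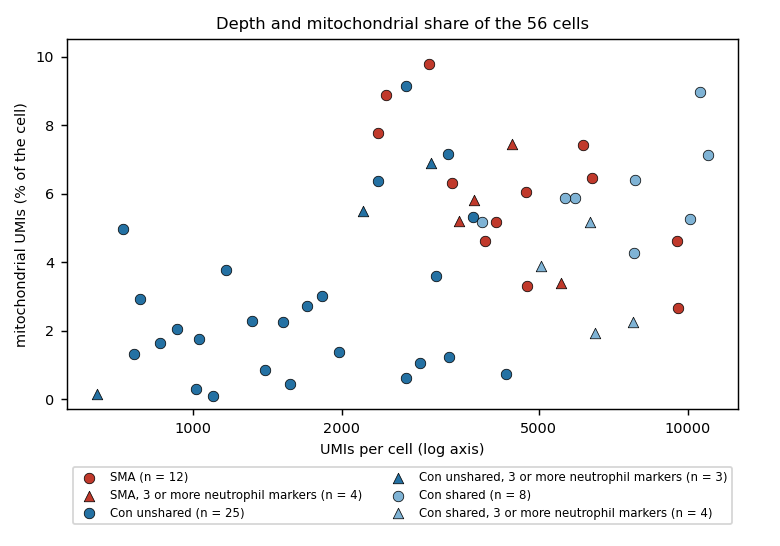
UMIs per cell (log axis) against mitochondrial UMIs in percent of the cell, 1 point per chosen cell, with SMA, Con unshared and Con shared cells in different colours and triangles for cells with 3 or more of 8 neutrophil markers. Most Con unshared cells lie to the left of and below the SMA cells, at a median of 1637 against 4256.5 UMIs and 2.14% against 5.92% mitochondrial UMIs.

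Smn1, the gene targeted in the SMA mice, had 0 UMIs in the SMA cells, 2 in the Con unshared and 3 in the Con shared cells, too few for a comparison. Over all kept cells it had 2197 UMIs in SMA, or 48.1 CPM, the gene's UMIs scaled to a total of 1000000 per group, against 40.4 CPM in Con unshared and 43.4 CPM in Con shared cells. Smn1 was not lower in SMA and did not check the labels, and where its tags lie relative to the disrupted sequence is not given in the sources used here. SMA and Con are used only as the libraries were labelled. Xist, which marks female cells, had 0 UMIs in the chosen SMA cells, 13 in the Con unshared and 41 in the Con shared cells, and over all kept cells 1.51, 402 and 534 CPM. The sexes are not given in the sources used here, and sex and genotype cannot be told apart.

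The chosen cells made up 0.236% of kept SMA cells (0.135 to 0.383), 0.759% of Con unshared cells (0.505 to 1.10) and 0.183% of Con shared cells (0.0945 to 0.319). The SMA share lay below the first of these and within the interval of the second. Against all Con cells, 40 of 10256 (0.390%), the log2 ratio of the SMA share was -0.73 with an interval of -1.56 to 0.11. It was -1.69 (-2.57 to -0.80) against Con unshared and 0.37 (-0.71 to 1.45) against Con shared cells, so that its sign depended on which Con barcodes were counted. Without the cells that carried neutrophil markers, described below, the shares were 0.177%, 0.678% and 0.122%.

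At the limit of the rule, 6 SMA, 13 Con unshared and 6 Con shared cells had exactly 3 of the 7 genes, and 11, 40 and 6 further cells that met the other conditions had exactly 2. No cell had all 7. Cells with a single gene were much more common, at 472, 463 and 281. Of the cells with 3 or more genes, 4 were removed for a microglial gene and 4 for 2 or more of the other excluded genes.

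Among the genes of the rule, Lyz2, the macrophage and granulocyte lysozyme (ENSMUSG00000069516, GRCm38 chr10:117277331-117282321, minus strand, protein-coding), was the most abundant. It had 682 UMIs in all 16 SMA cells (3 to 152 per cell, median 25), 394 in 25 of 28 Con unshared cells (0 to 41, median 9) and 1038 in all 12 Con shared cells (19 to 237, median 78.5). The ranges overlapped throughout. Lyz2 UMIs were also found in 3.57%, 2.06% and 2.88% of oligodendrocyte precursors, which should lack the gene, at median depths of 5965, 3547.5 and 6967 UMIs, and in 53.7%, 20.4% and 53.6% of microglia.

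Plac8, a gene of myeloid cells (ENSMUSG00000029322, chr5:100553725-100572245, minus strand), had 98 UMIs in 12 SMA cells, 107 in 25 Con unshared cells and 95 in 7 Con shared cells. It was near background in oligodendrocyte precursors, at 0.267%, 0.258% and 0.446% of cells. Over all kept cells it stood at 148 CPM in Con unshared cells, against 3.99 in SMA and 4.09 in Con shared cells, and 362 Con unshared cells (9.81%) had a UMI of it. Most Plac8-bearing Con unshared cells were therefore outside the chosen set.

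Ccr2, the receptor for the chemokine Ccl2 (ENSMUSG00000049103, chr9:124101950-124113557, plus strand), had 23 UMIs in 8 SMA cells, 11 in 10 Con unshared cells and 14 in 5 Con shared cells. Ly6c2 (ENSMUSG00000022584, chr15:75108158-75111970, minus strand) had 16, 29 and 19 UMIs in 8, 12 and 5 cells. Neither gene had a UMI in SMA or Con unshared microglia or oligodendrocyte precursors. In Con shared cells each gene was read in 1 of 842 microglia, and Ly6c2 in 2 of 2912 oligodendrocyte precursors. In the chosen cells both were seen in at most 50% of the cells of any group, so Ccr2 and Ly6c2 were more restricted but less often detected than Lyz2.

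Ms4a4c, a member of the Ms4a family of membrane proteins (ENSMUSG00000024675, chr19:11404770-11427246, plus strand), had 1 UMI in 1 SMA cell, 51 in 17 Con unshared cells and 3 in 2 Con shared cells. Ifitm6 (ENSMUSG00000059108, chr7:141015699-141017924, minus strand) had the opposite order of cells, at 111 UMIs in all 16 SMA cells, 35 in 14 of 28 Con unshared cells and 87 in all 12 Con shared cells. Chil3, a chitinase-like protein of neutrophils and monocytes (ENSMUSG00000040809, chr3:106147554-106167564, minus strand), had 16, 2 and 40 UMIs in 3, 2 and 3 cells. The genes were thus not read in the same proportions in the 3 groups, with Ms4a4c mostly in Con unshared cells and Ifitm6 in every SMA and Con shared cell.

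Of the 20 most abundant genes outside the mitochondrial and ribosomal protein genes, S100a9 (6660 UMIs over all 56 cells), Tmsb4x (4765), S100a8 (4401), Cstdc5 (2779) and Fth1 (2726) led, and Lyz2 (2114), Camp (2035) and Ngp (1760) followed among the others. Camp and Ngp are neutrophil genes. S100a8 and S100a9 are genes of neutrophils too, but were not confined to cells with neutrophil markers. They were read in 9 and 3 of the 12 SMA cells with fewer than 3 of the neutrophil markers described below. S100a9, Camp and Ngp were read in 15, 9 and 9 of the 56 cells and S100a8 in 22.

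The label of monocytes was met by only a portion of the cells. Of the 56 cells, 11 had 3 or more of 8 neutrophil markers, Ly6g, Retnlg, Mmp8, Mmp9, Camp, Ngp, Ltf and Lcn2, which encode proteins of neutrophil granules and surface. These were 4 of 16 SMA (25%, 7.27 to 52.4), 3 of 28 Con unshared (10.7%, 2.27 to 28.2) and 4 of 12 Con shared cells (33.3%, 9.92 to 65.1). The 8 markers took 4.70 to 13.1%, 3.49 to 10.3% and 7.04 to 23.0% of their UMIs, against at most 0.0759% in any of the other 45 cells. By this cut-off the 11 cells had 3 to 8 of the markers and the other 45 had at most 2.

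S100a8 and S100a9, which encode the subunits of calprotectin, were the leading genes of the same 11 cells, at 18.9 to 27.7% of UMIs in SMA, 20.5 to 22.3% in Con unshared and 13.9 to 25.5% in Con shared cells. Ribosomal protein genes took 3.13 to 5.72%, 1.40 to 3.31% and 2.39 to 2.97% of UMIs there, against medians of 20.9%, 10.0% and 15.9% in the other cells. In the SMA library, 3 of the 4 cells had Camp and Ngp UMIs, up to 255 and 227 in 1 cell. All 4 Con shared cells had both genes, with totals of 1554 and 1355 UMIs. The cells are called neutrophil-marker cells below, for these genes and not as a type, and the main gene ratios, list medians and shares of cells are given with and without them. The shares after thinning include them.

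**Figure D2:**
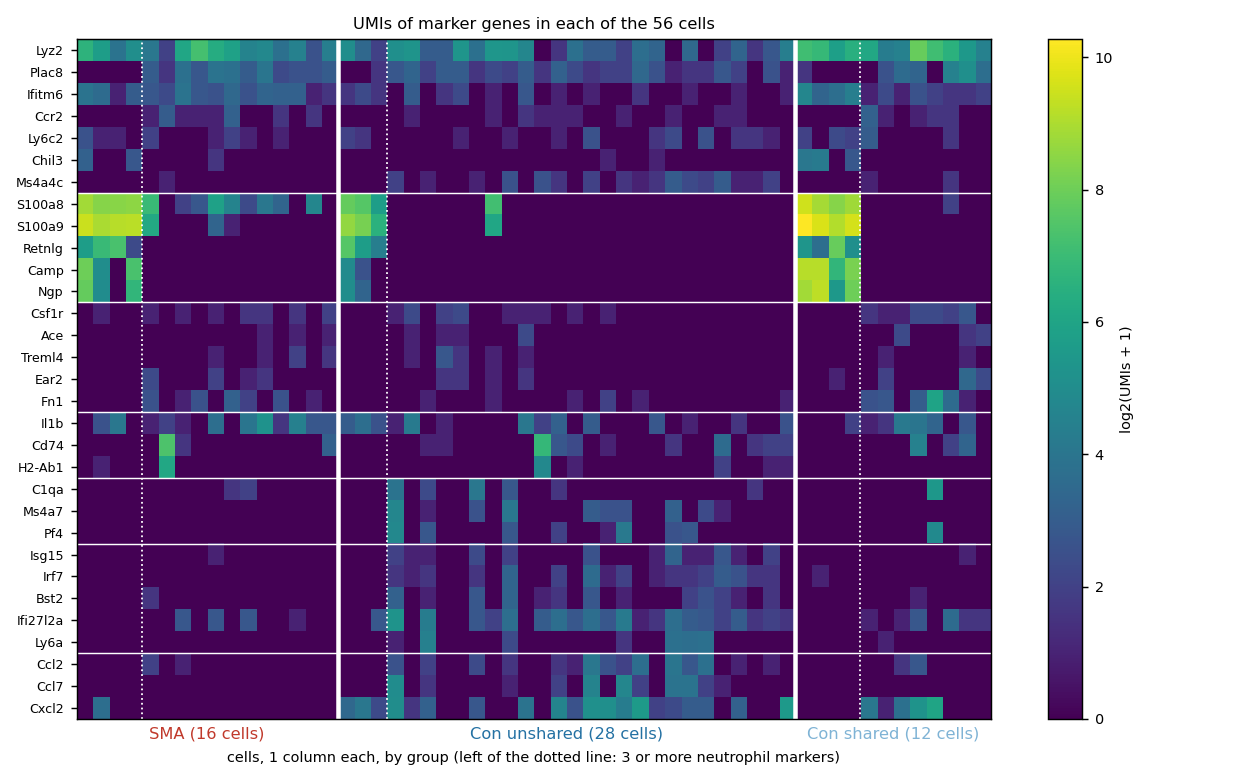
UMIs of marker genes as log2(UMIs + 1), with 1 row per gene and 1 column per chosen cell, for 16 SMA, 28 Con unshared and 12 Con shared cells, and a dotted line to the right of the neutrophil-marker cells of each group. S100a8, S100a9 and Retnlg fill the 4, 3 and 4 columns left of the dotted lines, while Isg15, Irf7, Bst2 and Ccl7 are seen in Con unshared columns and in at most 1 column of each of the other groups.

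Core myeloid genes and markers of both monocyte subsets were read in small numbers. Csf1r, the receptor for colony stimulating factor 1, had 13 UMIs in 8 SMA cells, 17 in 9 Con unshared cells and 21 in 7 Con shared cells, of which the neutrophil-marker cells held 1 SMA UMI. Spi1, the myeloid transcription factor PU.1, had 51, 34 and 50 UMIs in 15, 16 and 12 cells, and 38, 34 and 37 UMIs in 12, 16 and 8 cells without the neutrophil-marker cells. The log2 ratio of Spi1 was 0.06 (-0.59 to 0.73) between SMA and Con unshared and 0.22 (-0.37 to 0.81) between SMA and Con shared cells, so neither interval left out 0.

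Of the classical monocyte list of 14 genes, at least 2 genes had a UMI in 15 of 16 SMA cells (93.75%), 12 of 22 Con unshared cells (54.5%) and 9 of 12 Con shared cells (75%) after each cell was thinned to 1000 UMIs, which left out 6 Con unshared cells. In oligodendrocyte precursors the share was 1.84%, 1.55% and 1.96%. The list did not set the other chosen cells apart from the neutrophil-marker cells. It took a median of 0.725%, 0.461% and 0.371% of UMIs in the neutrophil-marker cells of the 3 groups. In the other chosen cells the medians were 0.472%, 0.263% and 0.255%. Hp, haptoglobin, had 111 UMIs in 14 SMA cells, 26 in 10 Con unshared cells and 51 in 7 Con shared cells. Without the neutrophil-marker cells it had 40, 12 and 6 UMIs in 10, 7 and 3 cells. Thbs1, thrombospondin, had 36, 6 and 30 UMIs in 12, 5 and 7 cells, and without those cells 13, 3 and 14 in 8, 3 and 3 cells, so that more than 50% of its UMIs in SMA and Con shared cells were in neutrophil-marker cells. Fn1, fibronectin, had 28, 8 and 91 UMIs, all outside them, of which 61 were in 1 Con shared cell. Vcan and F13a1 had at most 9 UMIs in any group.

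Of the non-classical genes, Treml4, Ace and Ear2 were each read in few cells. Nr4a1 is also on that list of 12 genes. Outside the neutrophil-marker cells, 12 of 12 SMA, 14 of 25 Con unshared and 8 of 8 Con shared cells had a UMI of the list. Treml4, a receptor of non-classical monocytes, had 7 UMIs in 4 SMA cells, 11 in 5 Con unshared cells and 2 in 2 Con shared cells. Ace, the angiotensin converting enzyme, had 3, 7 and 9 UMIs in 3, 4 and 3 cells. Ear2, an eosinophil-associated ribonuclease gene also read in these monocytes, had 10, 7 and 18 UMIs in 4 cells of each group. With 2 or more genes of the list of 12 counted after thinning, the shares were 25% (7.27 to 52.4), 22.7% (7.82 to 45.4) and 33.3% (9.92 to 65.1), intervals that overlapped almost entirely.

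The interferon response separated Con unshared cells from both other groups. Interferon-stimulated genes are turned on by type I interferon through the factor ISGF3, and Irf7 is a transcription factor that carries the response further. The list of 19 such genes took a median of 1.79% of a Con unshared cell's UMIs (range 0 to 5.39), against 0.307% in SMA (0.0290 to 0.766) and 0.188% in Con shared cells (0.0593 to 0.766). Of the 28 Con unshared cells 21 lay above the highest SMA cell, and the groups overlapped at the low end. Without the neutrophil-marker cells the medians were 1.92%, 0.344% and 0.363%.

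Ifi27l2a, an interferon-induced mitochondrial membrane protein, had 190 UMIs in 22 of 28 Con unshared cells (0 to 38 per cell, median 6), 19 in 4 of 16 SMA cells (0 to 6) and 23 in 6 of 12 Con shared cells (0 to 11). Its log2 ratio of CPM was -3.85 (-4.61 to -3.16) for SMA over Con unshared and -3.76 (-4.45 to -3.13) for Con shared over Con unshared. The lower level was found in both deeper groups, and SMA and Con shared cells were close, at -0.08 (-1.04 to 0.86).

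Irf7 had 58 UMIs in 17 Con unshared cells, with up to 11 in a cell, 0 in SMA and 1 in Con shared cells. With the count of 0 set at 3 UMIs over the group, the SMA level was at least 27.8-fold lower than that of Con unshared cells. Bst2, the tethering factor tetherin, had 48 UMIs in 13 Con unshared cells, 2 in SMA and 1 in Con shared cells, and Isg15, a ubiquitin-like protein, had 39 in 13 cells, 1 and 1. Rsad2, the antiviral enzyme viperin, had 18 UMIs in 8 Con unshared cells and none in the other groups, a level at least 8.62-fold lower in SMA. Ifitm3 was lower in SMA than in Con unshared cells by 1.78 on the log2 scale, whereas Ifitm2 stood at 0.04 (-0.37 to 0.47), so not every gene of the list was lower. Between SMA and Con shared cells Ifitm3 stood at 0.03 (-0.32 to 0.38), and Irf7, Bst2, Isg15 and Rsad2 had too few UMIs for a ratio.

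The sequence before the start of these genes is shown because interferon-stimulated genes are known for an ISGF3 site whose core is GAAA, any 2 bases and GAAA, and these 3, picked after their values were seen, had 18 or more UMIs in Con unshared cells and 2 or fewer in either other group. Each line gives the 250 bases before the RefSeq start on the gene's strand, from GRCm38.p6, with matches to this core on either strand in capitals. Isg15 lies on chr4:156200819-156201068 and had 3 overlapping matches, Bst2 on chr8:71537473-71537722 had 2 overlapping matches, and Rsad2 on chr12:26456453-26456702 had 1. All 3 genes and windows lie on the minus strand, and the match of Rsad2 is to the core on the strand opposite the gene. The window of Irf7, with no match, overlaps a longer annotated transcript and is not shown.
Isg15: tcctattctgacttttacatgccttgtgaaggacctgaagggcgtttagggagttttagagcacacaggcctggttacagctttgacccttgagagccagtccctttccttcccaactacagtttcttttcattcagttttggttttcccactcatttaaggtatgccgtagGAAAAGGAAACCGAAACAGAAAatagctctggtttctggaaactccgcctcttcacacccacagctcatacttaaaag
Bst2: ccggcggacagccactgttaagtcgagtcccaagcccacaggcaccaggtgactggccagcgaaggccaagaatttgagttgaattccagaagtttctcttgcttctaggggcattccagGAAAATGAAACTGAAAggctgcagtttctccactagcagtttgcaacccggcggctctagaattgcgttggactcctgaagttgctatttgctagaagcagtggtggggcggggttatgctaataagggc
Rsad2: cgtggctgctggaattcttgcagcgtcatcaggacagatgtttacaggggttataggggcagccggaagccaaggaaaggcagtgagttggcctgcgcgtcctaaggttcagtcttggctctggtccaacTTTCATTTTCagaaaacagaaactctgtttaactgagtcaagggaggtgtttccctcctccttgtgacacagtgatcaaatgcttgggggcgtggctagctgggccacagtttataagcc

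The core was found in such windows of 821 of 27025 genes (3.04%), and of 7 of the 14 interferon list genes that had one (50%). None of the 7 genes of the rule held it, Ms4a4c and Ifitm6 included. A match is a description of the letters and not of binding.

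After thinning to 1000 UMIs, 20 of 22 Con unshared cells (90.9%, 70.8 to 98.9) had UMIs in 2 or more interferon list genes, against 7 of 16 SMA (43.75%, 19.8 to 70.1) and 4 of 12 Con shared cells (33.3%, 9.92 to 65.1). Unthinned, 87.5% of SMA and 100% of Con shared cells had them, so the share depends on depth. Among thinned oligodendrocyte precursors the shares were 1.29% in Con unshared, 1.71% in SMA and 2.13% in Con shared cells. Microglia had Ifi27l2a at 36.4 CPM in Con unshared, 34.3 in SMA and 34.2 in Con shared cells, and Bst2 at 33.4, 38.9 and 52.5 CPM, without the order seen in the chosen cells. Over all kept cells, however, it was at 315 CPM in Con unshared against 11.6 and 13.6, and Irf7 at 61.2 against 2.65 and 2.92, so the pattern was also present in Con unshared cells outside the chosen set.

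**Figure D3:**
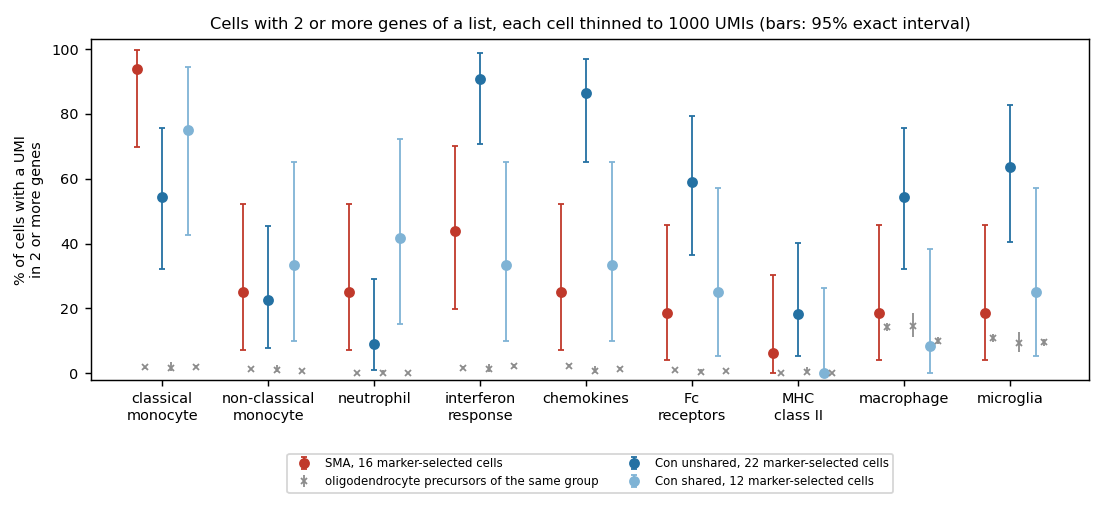
Percent of chosen cells with a UMI in 2 or more genes of a list, after each cell was thinned to 1000 UMIs, for 9 lists in 16 SMA, 22 Con unshared and 12 Con shared cells, with exact 95% intervals and crosses for oligodendrocyte precursors of the same group. Con unshared cells stand highest for interferon response (90.9%) and chemokines (86.4%), and SMA cells for the classical monocyte list (93.75%). The neutrophil-marker cells, which also carry genes of the classical list, are included.

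Within Con unshared cells the interferon list went with Ms4a4c, itself a gene of the rule. Of the 25 cells outside the neutrophil-marker set, the 17 with an Ms4a4c UMI had a median of 2.65% of UMIs in the list (1.21 to 5.39) and 1.32% mitochondrial UMIs (0.0913 to 3.78). The 8 without had 0.663% (0.152 to 2.21) and 5.15% (2.24 to 9.15). Irf7 was read in 15 of the 17 and in 2 of the 8, and Bst2 in 13 and 0 cells. Treml4 and Ace were read in 0 of the 17 and in 5 and 4 of the 8, but the 17 cells were shallower, at a median of 1317 UMIs against 2534. Other genes and lists also differed between these cells: Ms4a7 was read in 9 of the 17 and 1 of the 8, Ly6a in 7 and 0, and the chemokine list took a median of 2.05% and 0.677% of UMIs. The part of depth and of macrophage genes in the split was not tested. The interferon and mitochondrial ranges of the 2 sets overlapped, and since Ms4a4c helped to choose the cells, the split is a description. Without Ms4a4c in the rule 22 Con unshared cells remained, and Ifi27l2a was lower in SMA by 3.53 on the log2 scale. In cells of 2000 or more UMIs the difference was -3.24.

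Chemokines were also read mostly in Con unshared cells. The list of 13 took 1.76% of all Con unshared UMIs, 0.114% of SMA and 0.341% of Con shared UMIs. Without the neutrophil-marker cells the median per cell was 1.08%, 0.113% and 0.275%. Cxcl2, a neutrophil attractant, had 331 UMIs in 20 of 28 Con unshared cells (0 to 47 per cell, median 6.5), 12 in 1 of 16 SMA cells and 131 in 5 of 12 Con shared cells (0 to 63). The log2 ratio was -5.31 (-6.28 to -4.48) for SMA over Con unshared and -3.26 (-4.25 to -2.40) for SMA over Con shared. The single SMA cell with Cxcl2 was a neutrophil-marker cell, so the gene had no UMI in the other 12 SMA cells. With 2 or more markers as the limit, which added 11 SMA cells, the ratio to Con unshared moved to -0.30 and that to Con shared turned to 0.34, and Ccl4 and Spp1 moved to -1.27 and -1.03 over Con unshared, while Ccl7 and Ifi27l2a stood at -6.52 and -4.48. The size of the Cxcl2, Ccl4 and Spp1 differences thus depended on the marker limit.

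Among the chosen cells the monocyte attractants stood apart in the same way. Ccl7 had 120 UMIs in 11 Con unshared cells (up to 31 in a cell) and none in either other group, a level at least 57.5-fold lower in SMA. Ccl2, the ligand of Ccr2, had 89 UMIs in 15 Con unshared cells, 4 in SMA and 8 in Con shared cells, a log2 ratio of -5.00 (-6.91 to -3.59) for SMA over Con unshared and -0.81 (-2.99 to 1.09) over Con shared. Ccl12 had 56, 0 and 0 UMIs and Ccl4 117, 6 and 50. Ccl6 differed less, with 73 UMIs in 19 Con unshared, 49 in 13 SMA and 47 in 8 Con shared cells, log2 ratios of -1.10 (-1.65 to -0.56) and 0.25 (-0.35 to 0.86) for SMA over the respective Con group. Il1b, which encodes interleukin-1 beta, did not follow the chemokines either: it had 125 UMIs in SMA, 92 in Con unshared and 53 in Con shared cells, a log2 ratio of -0.08 (-0.48 to 0.32) and 1.43 (0.96 to 1.92) for SMA over the respective Con group. Chemokine UMIs were also found outside the chosen cells. In Con unshared microglia Ccl7 had 27 UMIs in 7 of 113 cells and Cxcl2 had 94 in 9. These stood at 81.9 and 285 CPM, against 2230 and 6152 CPM in the chosen cells. The study also names Ccl7 and Ccl2 among genes lowered in SMA vasculature. Whether Con unshared cells of other kinds share the difference was not tested.

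**Figure D4:**
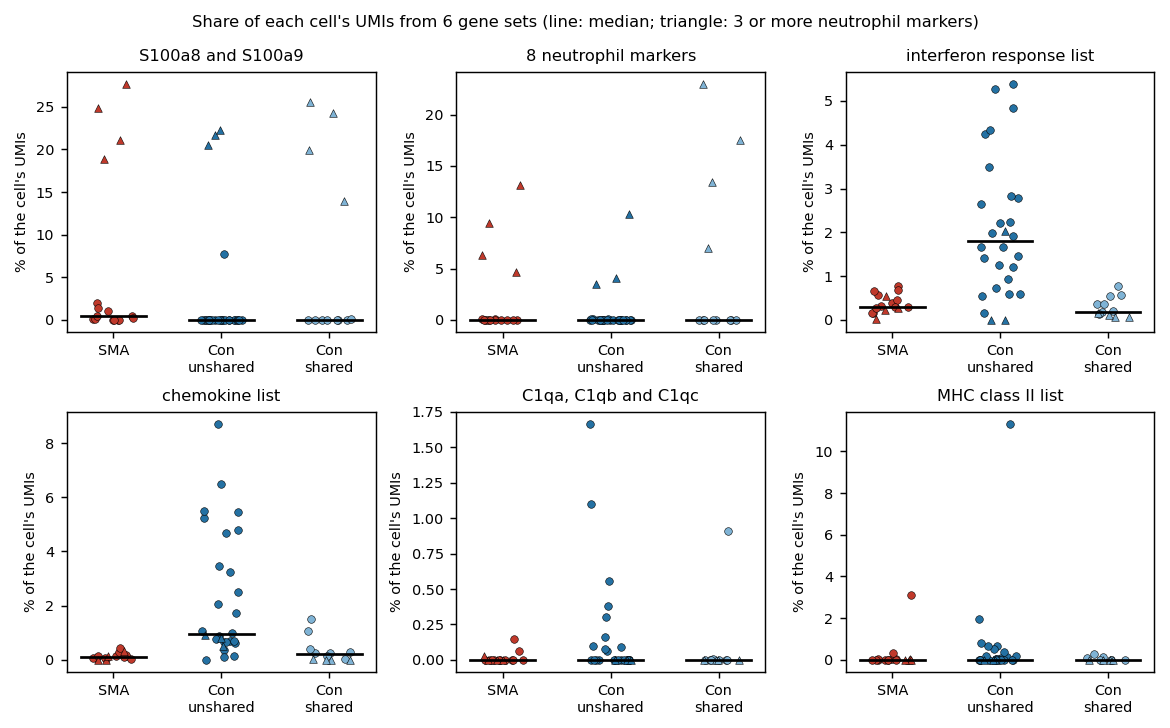
Percent of each cell's UMIs in 6 gene sets, 1 point per cell and a line at the median, with triangles for neutrophil-marker cells. The triangles are defined by the 8 neutrophil markers, so their place in that panel is set by definition. S100a8 with S100a9, not used to define them, also set them apart in every group. The interferon list (median 1.79%) and the chemokine list (median 0.955%) are higher in Con unshared cells than in SMA cells (0.307% and 0.113%).

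Several macrophage genes were highest in Con unshared cells, but not all. Ms4a7 had 77 UMIs in 10 Con unshared cells and none in SMA or Con shared cells. Pf4, platelet factor 4, had 71 UMIs in 8 Con unshared cells, 0 in SMA and 28 in 1 Con shared cell. C1qa, a complement subunit of macrophages and microglia, had 44 UMIs in 6 Con unshared cells, 5 in SMA and 42 in 1 Con shared cell. Apoe, the lipid carrier, was highest in Con shared cells, with 458 UMIs (183 in 1 cell and 165 in another) against 191 in Con unshared and 121 in SMA cells, or 5185, 3550 and 1565 CPM. This order thus rested on few cells. The list of 14 macrophage genes took 0.918%, 0.188% and 0.659% of UMIs in Con unshared, SMA and Con shared cells, with 1, 9 and 4 genes at 0. The microglia list of 14 genes took 0.580%, 0.173% and 0.165% of UMIs, and Sall1, Slc2a5 and P2ry13 were at 0 in all groups. Spp1, osteopontin, had 183 UMIs in 8 Con unshared cells and none elsewhere. Their part in the differences was not tested.

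Over all genes with at least 100 UMIs in both groups together, SMA cells were at least 2-fold higher than Con unshared cells for 26 of 213 genes (12.2%) and at least 2-fold lower for 27 (12.7%). The median log2 ratio was 0.25, and centred on it 13 genes were higher and 33 lower. Since a gene could reach 100 UMIs through the group where it was high, these calls say nothing about a gene list. Of the genes named by size, the lowest were Spp1, Ccl7, Cxcl2, Ccl4, Ifi27l2a, Ctsd, Ctsl, Ctsb, Fth1 and Ly6e.

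The list of 9 iron and haem genes took 5.77% of UMIs in Con unshared, 1.16% in SMA and 1.38% in Con shared cells, with 4, 1 and 1 genes at 0, and the list of 12 lysosome genes 1.35%, 0.369% and 0.494%, with none at 0. Fth1, the ferritin heavy chain, had 1859 UMIs in all 28 Con unshared cells, with 414 in 1 of them, 372 in 15 SMA cells and 495 in all 12 Con shared cells, a log2 ratio of -2.84 (-3.01 to -2.68) for SMA over Con unshared. Ftl1, the light chain, was lower by 1.76. The cathepsins Ctsd and Ctsb, proteases of the lysosome, had 12 and 29 UMIs in SMA, 105 and 149 in Con unshared and 46 and 35 in Con shared cells, log2 ratios of -3.65 and -2.88. Of the MHC class I genes H2-K1 was lower by 2.72 and H2-D1 by 1.55. Between SMA and Con shared cells Fth1 stood at -0.22 (-0.42 to -0.02) and Ctsb at -0.08 (-0.84 to 0.67), while Ctsd stood at -1.75, H2-K1 at -0.97, Ftl1 at -0.18 and H2-D1 at -0.13.

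Of the genes named by size as higher in SMA than in Con unshared cells, Anxa1 (1.81), Lcn2 (1.58), Hp (1.57) and Cstdc5 (1.32) are genes of neutrophils and other phagocytes. The neutrophil genes Camp (5782 against 632 CPM) and Ngp (4708 against 762 CPM) had larger ratios. Each was read in 3 SMA and 2 Con unshared cells, too few to be named by size. Bsg, the cell surface protein basigin, had 104 UMIs in 9 SMA cells and 18 in 10 Con unshared cells (2.01, 1.28 to 2.82), but turned to -0.12 without cells of 2 or more neutrophil genes. Rpl26, Rps28, Rpl21 and Rps21 encode ribosomal proteins and stood between 1.33 and 1.46. Fabp7 (1.26), a fatty acid binding protein of astrocytes and their precursors, had 79 UMIs in 15 SMA cells and 23 in 7 Con unshared cells. With all Con cells together Lcn2 and Fabp7 turned to -0.10 and -0.21. The astrocyte list of 7 genes summed to 0.149% of SMA, 0.0576% of Con unshared and 0.303% of Con shared UMIs, and its part in the result was not tested.

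Without the neutrophil-marker cells 12 SMA and 25 Con unshared cells were compared, and 24 of 180 genes were higher (13.3%) and 21 lower (11.7%). Cxcl2, now at 0 UMIs in SMA against 301, was at least 126-fold lower, and Ccl7 at least 50.3-fold. Ifi27l2a stood at -3.61 and Fth1 at -2.73. Anxa1 dropped to 0.88, and no gene of the neutrophil list had the 100 UMIs needed. Cxcl2, Ccl7, Ifi27l2a and Fth1 were thus lower with and without these cells.

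Against Con shared cells, which were closer in depth, 12 of 227 genes were at least 2-fold higher in SMA (5.29%) and 12 at least 2-fold lower (5.29%), again at a median of 0.25; centred on it, 5 were higher and 14 lower. S100a6, a calcium-binding protein, led the higher genes named by size. It had 291 UMIs in all 16 SMA cells and 106 in all 12 Con shared cells, a log2 ratio of 1.65 (1.32 to 1.98). Of the named genes S100a10 (1.46), Il1b (1.43), Hp (1.31), Rps21 (1.23), Prdx1 (1.21) and S100a11 (1.16) came next. Hp turned to -0.42 at a mitochondrial limit of 5%.

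The lower genes named against Con shared cells were Cxcl2, Sparcl1 (-2.41), Trf (-1.91), Apoe (-1.73), Fn1 (-1.51), Fabp5 (-1.42) and the neutrophil genes Ltf, Ngp, Camp and Olfm4 (-1.71 to -1.16). Most Con shared Apoe UMIs were in 2 cells. Sparcl1 and Trf are genes of astrocytes and oligodendrocytes in the cord, and Cxcl2, Sparcl1, Fabp5, Apoe, Trf and Fn1 changed sign under other settings given with the limits. The 3 neutrophil genes Ltf, Ngp and Camp were seen in 2, 3 and 3 SMA cells and in 4 Con shared cells each, so these ratios rest on few cells.

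**Figure D5:**
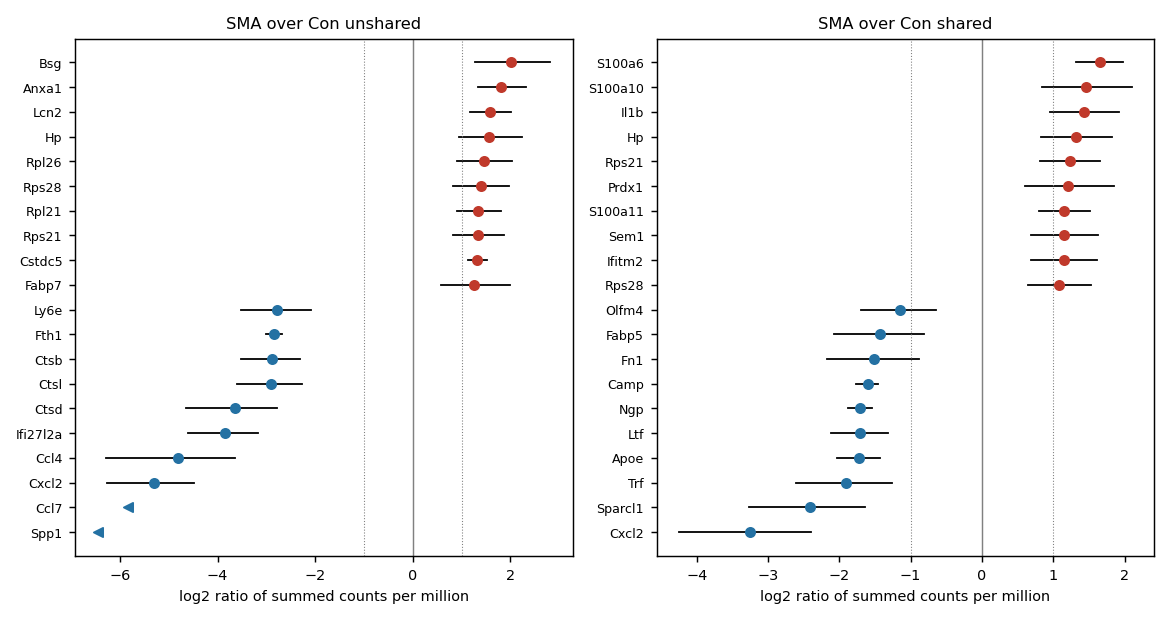
Log2 ratio of summed CPM for the 10 highest and 10 lowest genes of SMA over Con unshared (left) and SMA over Con shared cells (right), with exact 95% intervals, dotted lines at 2-fold and triangles for upper bounds of genes with no SMA UMI. Only genes that met the UMI minimum and were read in enough cells of the higher group, as given with the processing, were ranked. Camp and Ngp, each read in 3 of 16 SMA cells, were left out on the left by the cell limit. The lowest genes on the left reach -5.31 for Cxcl2 and bounds of -5.85 for Ccl7 and -6.45 for Spp1, whereas on the right Cxcl2 stands at -3.26 and the other genes between -2.41 and 1.65.

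Without neutrophil-marker cells, 11 of 178 genes were higher (6.18%) and 6 lower (3.37%) in 12 SMA against 8 Con shared cells. S100a8 was then read in 9 of the 12 SMA cells (266 UMIs, 0 to 123 per cell, median 7.5), in 1 of the 8 Con shared cells (3 UMIs) and in 1 of 25 Con unshared cells (143 UMIs). Of the SMA UMIs 123 and 57 were in the 2 cells with 2 neutrophil markers, just under the limit of 3, and the other 10 cells held 0 to 25 each. In Con it was at 0 in all but 1 of these cells of each group. S100a9 followed in 3 of the 9 SMA cells, with 82 UMIs.

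Within the Con library, 21 of 212 genes were at least 2-fold higher in Con shared than in Con unshared cells (9.91%) and 26 lower (12.3%), at a median of 0.02. Of the named genes, Ltf (5.25), Camp (4.80) and Ngp (4.33) were the highest, followed by Sparcl1 (2.56) and Bsg (2.31). Without the neutrophil-marker cells Bsg (2.63), Trf (2.60) and Fabp7 (2.47) were the highest of the named genes, and Ifi27l2a stood at -3.39. Spp1 and Ccl7, with no UMI in Con shared cells, were at least 100.2-fold and 65.7-fold lower, and Ifi27l2a, Cd74 and Ctsb stood at -3.76, -2.84 and -2.81. Cd74 turned to 2.69 in cells of 2000 or more UMIs, and Bsg to -0.89 at a mitochondrial limit of 5%. Cxcl2 was lower by 2.05. The 2 kinds of Con cell were listed in the same library.

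Compared with microglia of the same library and barcode class, the chosen cells had lower levels of microglial genes, 3 of which the rule itself removed. In SMA 1220 of 6983 genes were at least 2-fold higher (17.5%) and 1227 lower (17.6%) than in 1063 microglia. S100a9 had 2449 UMIs in 7 chosen cells, most of them in the 4 neutrophil-marker cells, and 1 in microglia, and Hp had 111 against 0. C1qa had 5 against 43757 UMIs and Cx3cr1, the fractalkine receptor, 1 against 9442. The lowest ratios of the named genes were of the globins Hbb-bs (-7.67) and Hba-a1 (-6.98). Each had 5 UMIs in the chosen cells, against 104217 and 64610 in SMA microglia. Most genes reached 100 UMIs through the microglia, and a call of a higher gene could rest on few UMIs of the chosen cells: at a minimum of 50 UMIs 2785 were higher and 1227 lower, and at 300 UMIs 203 and 913. Without the neutrophil-marker cells 1780 were higher and 887 lower, and without cells of 2 or more neutrophil genes 3165 and 491, so the even split of directions depended on these settings.

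In Con unshared cells 64 of 557 genes were higher (11.5%) and 142 lower (25.5%) than in 113 microglia, at a median of -0.32; centred on it, 92 were higher and 110 lower. Plac8, a gene of the rule, and Lgals3, galectin-3, led the higher genes named by size. Lgals3 had 126 UMIs in 25 chosen cells and 0 in microglia, at least 257-fold higher. Ifitm3 (6.70), Ifi27l2a (6.60), Ms4a6d (5.02), Ccl7 (4.77) and Cxcl2 (4.43) followed.

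Single cells carried other programmes. SMA cell 6 held 47 of 47 H2-Aa, 70 of 71 H2-Ab1 and 168 of 178 Cd74 UMIs of the SMA group, with 8 of Cd209a, genes of MHC class II presentation and of a dendritic cell subset. Con unshared cell 13 held 46 of 57 H2-Aa, 27 of 33 H2-Ab1, 114 of 148 Cd74 and 10 Cd209a UMIs, and class II genes took 11.3% of its UMIs. Both cells had Ccr2 UMIs, 7 and 1, and both had fewer than 4 Lyz2 UMIs. Xcr1, Clec9a and Flt3, which were also listed as dendritic cell markers, were at 0 in all groups. Ratios of class II genes between groups therefore rest on 1 cell each.

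Con unshared cell 6 had 4.08% of its UMIs in a fibroblast list, with 53 of the group's 54 Col1a2 UMIs, 21 Ly6a UMIs and 3 of the rule genes. Con unshared cell 7 had 2.59% in globin genes. Con shared cell 9 held all 42 C1qa and 28 Pf4 UMIs, 183 of Apoe and 61 of Fn1, and had 2 Ccr2 and 137 Lyz2 UMIs. Doublets were addressed by the limit of 4000 genes alone, and whether these barcodes hold 2 cells was not tested.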

How the data were processed

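The authors deposited 1 matrix of raw UMI counts per library, with barcodes and genes, made by Cell Ranger 4.0.0 per the file headers (the study's methods name 3.0.0); the submitters' processing notes give Seurat 3.2.2 and mm10. Starting from these counts, UMIs of the chosen cells were summed per group and gene. CPM is per 1000000 summed UMIs, and a log2 ratio compares the CPM of 2 groups with an exact conditional binomial 95% interval. Shares have Clopper-Pearson intervals and levels Poisson intervals. PCR and ambient RNA are not covered by these intervals. A count of 0 was set at 3 UMIs over the group for a fold. A gene was called higher or lower at 2-fold or more, among genes with at least 100 UMIs in the 2 groups together. Cells were numbered within a group by depth, neutrophil-marker cells first. Microglia and oligodendrocyte precursors were taken by marker rules of their own.

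The genes named were those of the rule, 38 fixed lists of 350 genes in all, the 10 highest and 10 lowest ratios of each comparison (5 and 5 within Con) among genes with 100 UMIs and a UMI in 20% of cells of the higher group, and the 20 most abundant genes. The cells, lists and comparisons were chosen with earlier results of these data known. Doublets were limited by the 4000-gene maximum alone, and no caller was run. The computation was tested on simulated data. Gene positions are from GENCODE M21 (GRCm38; 32158 of 32285 genes matched) and promoters from RefSeq GRCm38.p6. Alternatives were other marker, gene, UMI and mitochondrial limits, other depths, and Con cells together. Python 3.11.15, numpy 2.4.6, scipy 1.17.1, pandas 2.3.3 and matplotlib 3.10.9 were used.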

Additional observations from a re-analysis of the deposited data

Results flagged for a closer look

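Of the SMA barcodes also listed in the Con library, which were used only in an alternative, 7 met the rule of the chosen cells, with no reference count to set beside them. They were copies of 7 of the 12 Con shared cells, had 738 to 1995 UMIs together with the other 5 copies, and 3 of them had 5 to 7 neutrophil markers.

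A further 5 barcodes met the rule but lay outside the limits on genes and mitochondrial UMIs and were used only in alternatives. Of these, 3 were Con shared barcodes of 30603, 19278 and 14494 UMIs with 5488, 5107 and 4021 genes, 1 was a Con unshared barcode of 3711 UMIs at 10.7% mitochondrial UMIs, and 1 was an SMA barcode of 3106 UMIs at 11.6%.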

How the results depend on the processing

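Each group was 1 library, so all values describe these libraries. No paired analysis was possible because each group is 1 library. Of 147 alternatives to the summary values 105 stayed close and 42 moved, and of 1430 alternative gene ratios 1355 stayed close, 57 moved and 18 changed sign. The direction held under every alternative for 17 of 20 named genes of SMA over Con unshared, 13 of 20 of SMA over Con shared, 8 of 10 within Con, and 18 and 20 of 20 over SMA and Con unshared microglia. The causes were not tested.

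The log2 ratio of shares was -1.69 with Con unshared cells only and 0.37 with Con shared cells only. For SMA over Con unshared, 53 genes were called, and 83 with 2 or more markers required, 24 in cells of 2000 or more UMIs, 101 and 13 at minimums of 50 and 300 UMIs, and 31 with all Con cells together. Of the genes on the lists, a count that the UMI minimum helps to set, 29 were called, beside 53 of 213 genes in all (24.9%), and 44 with 2 or more markers, 17 with 4 or more, 14 at 2000 UMIs, 17 and 19 without cells of 2 or more of 16 or 3 or more of 8 neutrophil genes, 19 without Ms4a4c in the rule, and 53 and 11 at 50 and 300 UMIs. For SMA over Con shared (24) the counts were 43 with 2 markers, 42 with no upper limit on genes, 7 without cells of 2 or more neutrophil genes, and 46 and 8 at the UMI minimums. For Con shared over Con unshared (47) they were 106 with 2 and 29 with 4 markers, 26 at 2000 UMIs, and 99 and 15. Over Con unshared microglia (206) they were 347 and 32 at mitochondrial limits of 20% and 5%, and 401 and 58. Over SMA microglia (2447) they were 645 at 5%, and 4012 and 1116. Smn1 in Con unshared cells went from 37.2 CPM to 0 with 4 markers and at 5%.

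Shares of cells with 2 or more genes of a list were higher without thinning: interferon response went from 43.75% to 87.5% (SMA) and 33.3% to 100% (Con shared), neutrophil from 25% to 56.25% (SMA), chemokines from 25% to 56.25% (SMA, 6.25% at 500 UMIs) and 33.3% to 66.7% (Con shared), and macrophage from 18.75% to 62.5% (SMA) and 8.33% to 50% (Con shared).

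Sign changes were as follows. With 2 markers, SMA over Con shared stood at 0.34 for Cxcl2, 1.08 for Trf and 0.44 for Fn1, and over SMA microglia at 0.31 for Hbb-bs and 0.38 for Hba-a1. With 4 markers, SMA over Con shared was 0.47 for Sparcl1, 0.75 for Apoe and 0.35 for Fabp5. At 5% mitochondrial UMIs it was -0.42 for Hp, 0.027 for Sparcl1 and 0.44 for Fabp5, and Bsg within Con was -0.89. At 2000 UMIs Cd74 within Con was 2.69. Without cells of 2 or more neutrophil genes, Bsg was -0.12 over Con unshared, and Sparcl1 1.55 and Fabp5 0.81 over Con shared. With all Con cells together, Lcn2 was -0.10 and Fabp7 -0.21.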

Other observations

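The following values belong to lists not described above. The 6 genes of the NADPH oxidase, which makes reactive oxygen in phagocytes, took 0.484% of UMIs in SMA, 0.509% in Con unshared and 0.482% in Con shared cells. The cell cycle list of 14 genes had 15, 5 and 33 UMIs, and the lymphocyte list of 13 genes 12, 16 and 21. The list of 12 myeloid progenitor genes had 12, 5 and 39 UMIs, of which Prtn3, proteinase 3 of granulocyte precursors, had 4, 1 and 20. The mast cell and basophil list had 1, 3 and 1. Fc receptors, a list of 5 genes, took 0.327%, 0.691% and 0.274% of UMIs, the 8 genes of the Ms4a family 0.0168%, 0.336% and 0.0181%, the 7 of the Ly6 family 0.0479%, 0.336% and 0.0974%, the 10 chemokine receptors 0.0802%, 0.186% and 0.0974%, and the 11 immediate early genes 0.557%, 1.09% and 0.698%, in SMA, Con unshared and Con shared cells.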
